A study of Mus musculus with 5 samples.

Results

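The genes described here are 10 genes of stratified and cornifying epithelium, Sprr1a, Sprr1b, Sbsn, Dmkn, Abca12, Tgm1, Serpinb2, Serpinb10, Serpinb5 and Fxyd3, out of 12934 genes with deposited counts. They were picked from the comparison of sgMef2d with sgControl cells after several of them had been seen to rise from near 0, so their rise is what chose them, and their differences between the groups are a description. Their counts past the threshold, standard errors and intervals are given as such and are no evidence that they differ. EpH4 is an established line of mammary epithelium from the BALB/c mouse. RNA was sequenced from 3 libraries of sgControl EpH4 cells and 2 libraries of sgMef2d EpH4 cells, grown in medium with serum. All 5 libraries came from Cas9-expressing cells, made by lentiviral infection and blasticidin selection, which were then given a control sgRNA or an sgRNA against Mef2d by a further lentivirus and kept in puromycin. The methods speak of stable clones, and the sources used here do not say whether a group was 1 clone, whether both sgMef2d libraries carried the same sgRNA, or whether the libraries of a group were separate cultures. The errors and p-values below therefore measure only the spread between these libraries, which may be technical.

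In the epidermis, keratinocytes leave the basal layer, change their keratins and build a cornified envelope, a shell of crosslinked protein under the membrane with lipids bound to its outside. Small proline-rich proteins such as Sprr1a and Sprr1b are precursors of this shell, transglutaminase 1 (Tgm1) joins them by isopeptide bonds, and Abca12 loads lipids into the granules that are released between the cells. Suprabasin (Sbsn) and dermokine (Dmkn) are secreted by suprabasal keratinocytes, while the clade B serpins are mostly intracellular protease inhibitors of epithelia and blood cells. The simple and bilayered epithelium of the mammary gland does not normally cornify.

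The libraries held between 13601145 and 20498563 counts, and 3 counts, the level that a count of 0 still allows, stood for 0.146 to 0.22 CPM (counts per 1000000 counts of the library, with TMM factors). Mef2d RNA, the target of the sgRNA, stood at 64.2, 76.9 and 71.4 CPM in the sgControl libraries and at 64.2 and 65.8 CPM in the sgMef2d libraries. The groups overlapped (log2 fold change -0.12, SE 0.08, Benjamini-Hochberg adjusted p = 0.4 by the quasi-likelihood test of edgeR, used throughout). An edit by Cas9 need not lower the RNA, so this level does not check the labels. In the paper, an immunoblot of EpH4 cells with sgRNAs against Mef2d showed no MEF2D protein, which the RNA counts cannot show. Without sgControl replicate 1, Mef2d passed the threshold with an adjusted p of 0.0055 (0.0055 to 0.77 over the alternatives). The same library stood apart in the whole comparison, since the number of genes past the threshold of 0.05 rose from 992 to 3639 when it was left out, and it fell to 603 without sgControl replicate 2 and to 238 and 234 without sgMef2d replicates 1 and 2. Markers of a simple epithelium were abundant in both groups, with Epcam at 254 ± 1.99 CPM (SD, n = 3) in sgControl and 277 ± 1.57 CPM (SD, n = 2) in sgMef2d, and Krt8 at 971 ± 35.3 and 972 ± 30.6 CPM (9 of 11 such markers were listed). Of the 9, 1 was higher and 1 lower past the threshold (11.1% each, beside 3.67% and 4.28% of all genes tested), as Cldn4 rose from 160 ± 11.4 to 191 ± 4.6 CPM and Krt18 fell from 705 ± 20.3 to 591 ± 15.6 CPM (edgeR adjusted p = 0.0407 and 0.0207), and the summed level was 4290 to 4470 CPM in sgControl and 4070 to 4240 CPM in sgMef2d.

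The promoters of these genes are shown first, because the genes lie at several loci and were all higher in sgMef2d. RefSeq windows of 300 bases, from 250 bases before to 50 bases after a start site on GRCm38.p6, were found for all 10 genes, 14 windows in all. The word TGANTCA, which covers the AP-1 site TGAGTCA and its 1-base variant TGAATCA, stood in a window of 7 of the 10 genes, and in 8.97% of the 27025 genes with a window. The 150 bases before the start are printed for these 7 genes, 5′ to 3′ on the strand of the gene, with TGANTCA and the TATA word TATAAA in capitals.
Sprr1a: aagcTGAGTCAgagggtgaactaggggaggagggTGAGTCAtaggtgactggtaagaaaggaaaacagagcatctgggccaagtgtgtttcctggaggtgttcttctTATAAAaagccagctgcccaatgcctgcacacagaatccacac
Sprr1b: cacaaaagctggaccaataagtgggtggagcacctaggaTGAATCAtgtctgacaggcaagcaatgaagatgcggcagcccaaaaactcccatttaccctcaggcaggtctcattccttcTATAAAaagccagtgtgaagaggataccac
Sbsn: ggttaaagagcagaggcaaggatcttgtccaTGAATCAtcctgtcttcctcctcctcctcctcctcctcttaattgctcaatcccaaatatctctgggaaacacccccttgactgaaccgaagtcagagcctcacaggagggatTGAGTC
Dmkn, upstream start: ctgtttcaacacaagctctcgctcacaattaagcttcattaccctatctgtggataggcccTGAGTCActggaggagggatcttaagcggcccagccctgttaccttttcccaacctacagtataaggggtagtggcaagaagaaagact
Dmkn, downstream start: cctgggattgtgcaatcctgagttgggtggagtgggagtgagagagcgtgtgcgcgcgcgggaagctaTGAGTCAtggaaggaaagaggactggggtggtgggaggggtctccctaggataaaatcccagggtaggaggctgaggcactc
Serpinb2: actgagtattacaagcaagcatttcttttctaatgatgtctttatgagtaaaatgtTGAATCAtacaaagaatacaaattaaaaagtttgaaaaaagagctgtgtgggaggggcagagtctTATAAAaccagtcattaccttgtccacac
Serpinb10: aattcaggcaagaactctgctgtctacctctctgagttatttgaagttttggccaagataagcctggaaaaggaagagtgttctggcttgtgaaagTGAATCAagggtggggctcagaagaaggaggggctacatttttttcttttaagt
Serpinb5: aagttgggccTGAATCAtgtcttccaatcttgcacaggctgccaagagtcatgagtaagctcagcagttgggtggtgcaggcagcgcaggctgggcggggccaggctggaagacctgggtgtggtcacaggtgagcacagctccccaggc

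These stretches lie at chr3:92485882-92486031 (Sprr1a, minus strand), chr3:92438780-92438929 (Sprr1b, minus strand), chr7:30751321-30751470 (Sbsn, plus strand), chr7:30763606-30763755 and chr7:30776255-30776404 (Dmkn, plus strand), chr1:107511273-107511422 (Serpinb2, plus strand), chr1:107528853-107529002 (Serpinb10, plus strand) and chr1:106861025-106861174 (Serpinb5, plus strand). Sprr1a held the word 2 times, beginning 146 and 116 bases before the start, both as TGAGTCA. Sprr1b held it once, at 111 bases, as TGAATCA, and the stretches of these paralogs were identical at only 40 of 150 positions when lined up at the start without gaps. Both of the Dmkn stretches held TGAGTCA, at 89 and 82 bases, although they belong to different start sites. Sbsn held TGAATCA at 119 bases and TGAGTCA at 6 bases, the last base of which lies past the start and is not printed. Serpinb2, Serpinb10 and Serpinb5 each held TGAATCA, at 94, 54 and 140 bases. TATAAA stood 43, 30 and 29 bases before the start of Sprr1a, Sprr1b and Serpinb2, and the same word was found in 15.7% of all genes with a window.

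Read on both strands, TGAGTCA alone was found in a window of 3 of the 10 genes and in 5.95% of all genes, and TGAATCA alone in 5 of the 10 and in 3.3%. With the 10 genes left out, TGANTCA was held by 11.7% of the 324 other genes that were higher in sgMef2d past the threshold. It was held by 9.87% of the 395 lower ones and by 6.26% of the 9349 genes tested with a window. TGAATCA, searched alone only after the values were seen, was held by 5.25%, 1.01% and 1.71% of these groups of genes. TGAGTCA was held by 6.79%, 8.86% and 4.71% of the same groups of genes, so its share was no higher among the genes that rose than among those that fell. The KLF word CCACCC was found in 8 of the 10 genes, but also in 34.0% of all genes. The STAT word TTCNNNGAA was found in Tgm1 and Serpinb2 (9.55% of all genes) and the p63 motif in Abca12 (9.55%). The grainyhead word AACNGGTT (2.35% of all genes), the CRE word TGACGTCA (2.03%) and the MEF2 site (0.636%) were found in none of the 10. These shares are descriptions without a test. A match is a run of letters and not a site, and an absent word is absent only from these windows.

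**Figure D1:**
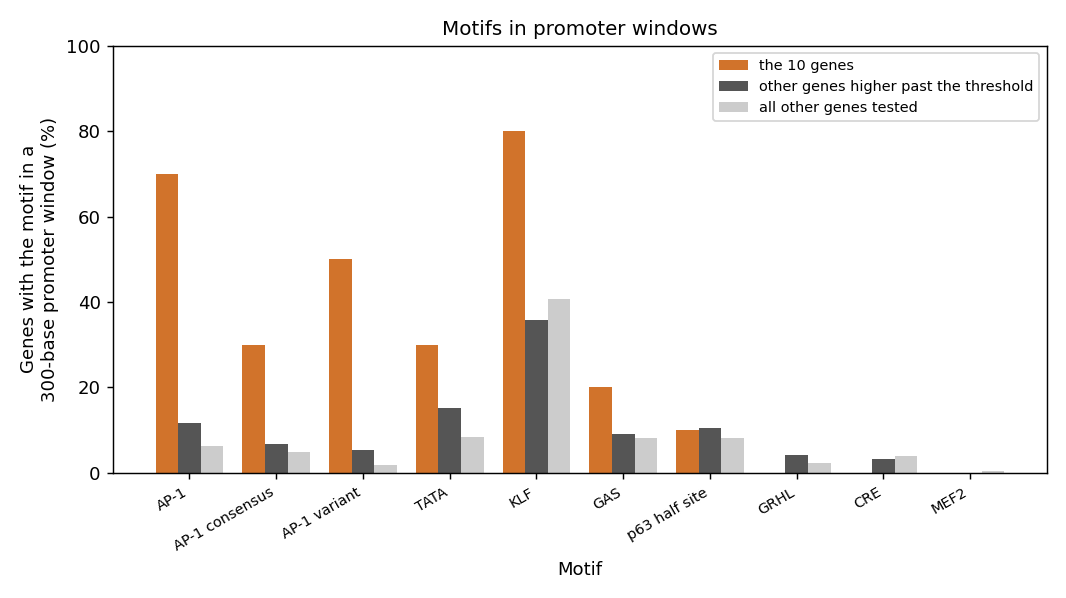
Percent of genes (vertical axis) with each motif (horizontal axis) in a 300-base promoter window, read on both strands. Orange bars show the 10 genes, dark bars the other genes higher in sgMef2d past the threshold and light bars all other genes tested; AP-1 is TGANTCA, its consensus TGAGTCA and its variant TGAATCA, and AP-1 stands in 7 of the 10 genes against 6.26% of the other genes tested.

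In sgControl cells 7 of the 10 genes had at most 8 counts in any library, and in sgMef2d cells all 10 had a higher CPM in both libraries than in every sgControl library. Over all 12483 genes tested, both sgMef2d libraries lay above every sgControl library for 20.6% of genes. All 10 passed the threshold and were higher in sgMef2d, as were 3.67% of all genes tested (7.95% in either direction), and 9 had a log2 fold change of at least 1, as against 1.66% of all genes tested. With DESeq2, 9 of the 10 passed the threshold (not Tgm1), and 8 did so without sgMef2d replicate 1 (not Tgm1 and Serpinb5) or without sgMef2d replicate 2 (not Abca12 and Tgm1). The genes were chosen on this contrast, so nothing is read from these counts. Moreover, 7 of the 10 passed the expression filter only through their level in sgMef2d, which favours a difference by construction, and of the 305 genes of that kind 44.9% lay above every sgControl library in both sgMef2d libraries. The median log2 fold change was 4.1 over the 10 genes, also with Sprr1b set to its lower bound, and 0.0031 over all genes tested.

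The RNAs of Sprr1a and Sprr1b were nearly absent from sgControl cells. Sprr1a (ENSMUSG00000050359.7, chr3:92483952-92485895 of GRCm38) had 7, 2 and 4 counts in sgControl replicates 1, 2 and 3, and 53 and 36 counts in sgMef2d replicates 1 and 2. This was 0.259 ± 0.104 CPM (SD, n = 3) against 2.77 ± 0.491 CPM (SD, n = 2), a ratio of 10.3 with an exact 95% counting interval from 5.74 to 20.1, which covers counting error only. Sprr1b (ENSMUSG00000048455.9, chr3:92436809-92438789), its neighbour 47.1 kb away, was at 0 in all 3 sgControl libraries and had 27 and 19 counts in sgMef2d replicates 1 and 2. Against a floor of 3 counts over the sgControl group, its level was at least 23.1-fold higher in sgMef2d, at 1.43 ± 0.219 CPM (SD, n = 2). The exact 95% counting interval of its ratio, the one used for the other genes, has a lower limit of 18.1 and no upper limit. In each sgMef2d library Sprr1a had more counts than Sprr1b. No 50-base word of either transcript set occurs in another gene, so reads of that length would not be shared between them.

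Suprabasin and dermokine, which lie 12.3 kb apart on chromosome 7, gave the most counts among the genes that started from near 0. Sbsn (ENSMUSG00000046056.15, chr7:30751471-30756134) had 5, 3 and 7 counts in sgControl and 106 and 80 counts in sgMef2d, or 0.323 ± 0.165 and 5.81 ± 0.602 CPM (SD, n = 3 and 2). Its ratio was 18.7, with a counting interval from 11 to 34.1. Of its 50-base words, 6.96% also occur in Tmem147os, a transcript on the same strand, so a part of its reads may belong to either transcript. Dmkn (ENSMUSG00000060962.12, chr7:30763756-30781063) had 7, 1 and 8 counts in sgControl and 176 and 170 counts in sgMef2d. Its mean was 0.333 ± 0.258 CPM (SD, n = 3) against 10.9 ± 0.771 CPM (SD, n = 2), a ratio of 32.6 with a counting interval from 19.8 to 57.7. For both genes the sgMef2d libraries lay close together and far above the 3 sgControl libraries.

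The enzyme and the lipid transporter of the envelope moved by different amounts. Tgm1 (ENSMUSG00000022218.16, chr14:55700009-55713926), which crosslinks envelope proteins, had 25, 19 and 16 counts in sgControl and 43 and 41 counts in sgMef2d. It was counted in every library, at 1.25 ± 0.0905 CPM (SD, n = 3) in sgControl and 2.65 ± 0.163 CPM (SD, n = 2) in sgMef2d, and its log2 fold change was 1.08 (SE 0.251). Abca12 (ENSMUSG00000050296.14, chr1:71242276-71414910), which transports glucosylceramides, had 1, 2 and 0 counts in sgControl and 16 and 20 counts in sgMef2d. Its ratio was 18.1, with a wide counting interval from 5.72 to 91.8, and 38.4 without sgControl replicate 2. The gene spreads these counts over 14.808 kb of exons, so per length Abca12 was the lowest of the 10 genes in sgMef2d cells.

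The 3 serpins differed most in where they started. Serpinb5 (ENSMUSG00000067006.12, chr1:106861173-106883348) encodes maspin, which is made by mammary myoepithelium and other epithelia, and was the only one of the 10 genes at a substantial level in sgControl cells. Its 3 sgControl libraries stood at 41.5, 31.1 and 36.6 CPM and its 2 sgMef2d libraries at 64.4 and 55.9 CPM, with a log2 fold change of 0.72 (SE 0.109). This was the smallest ratio of the 10 genes, 1.62 with a counting interval from 1.52 to 1.73, but the largest difference in CPM, 23.8. Serpinb2 (ENSMUSG00000062345.10, chr1:107511423-107535478), known as plasminogen activator inhibitor 2, had 2, 0 and 1 counts in sgControl and 20 and 20 counts in sgMef2d. Its ratio was 20.1, with a counting interval from 6.4 to 102, and 34.6 without sgControl replicate 1.

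Serpinb10 (ENSMUSG00000092572.7, chr1:107529003-107549271), known from blood cells as bomapin and annotated as a polymorphic pseudogene, had 0, 2 and 0 counts in sgControl and 51 and 52 counts in sgMef2d. Its ratio of 77.7, with a counting interval from 21 to 650, was the highest of the genes with a count in sgControl. It rested on sgControl replicate 2 alone, without which sgControl was at 0, and it was 44.6 without sgControl replicate 1. Serpinb2 and Serpinb10 start 17.6 kb apart, and their annotated bodies overlap by 6476 bases on the same strand with 291 exonic bases in common. Reads from the shared bases could have been given to either gene or left out by the counting. Both genes are also expressed by myeloid cells. Of the 8 myeloid markers examined only Cd68, Csf1r and Lyz2 were listed, none past the threshold, and their summed level was 3.41 to 4.18 CPM in sgControl and 4.82 to 5.12 CPM in sgMef2d. The defining markers Ptprc, Adgre1 and Itgam were not among the genes listed, and the part of such cells in the levels of these serpins was not tested.

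Fxyd3 (ENSMUSG00000057092.12, chr7:31068172-31076704) encodes a small membrane protein that modulates the sodium pump. It had 35, 34 and 21 counts in sgControl and 159 and 126 counts in sgMef2d, or 1.89 ± 0.463 CPM (SD, n = 3) against 8.92 ± 0.617 CPM (SD, n = 2). The log2 fold change was 2.25 with a standard error of 0.193. Fxyd3 thus lay between the genes that were near 0 in sgControl and Serpinb5. Its exons overlap those of Lgi4 on the other strand over 2059 bases. The libraries marked strand, but the strand setting of the counting was not given in the sources used here.

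**Figure D2:**
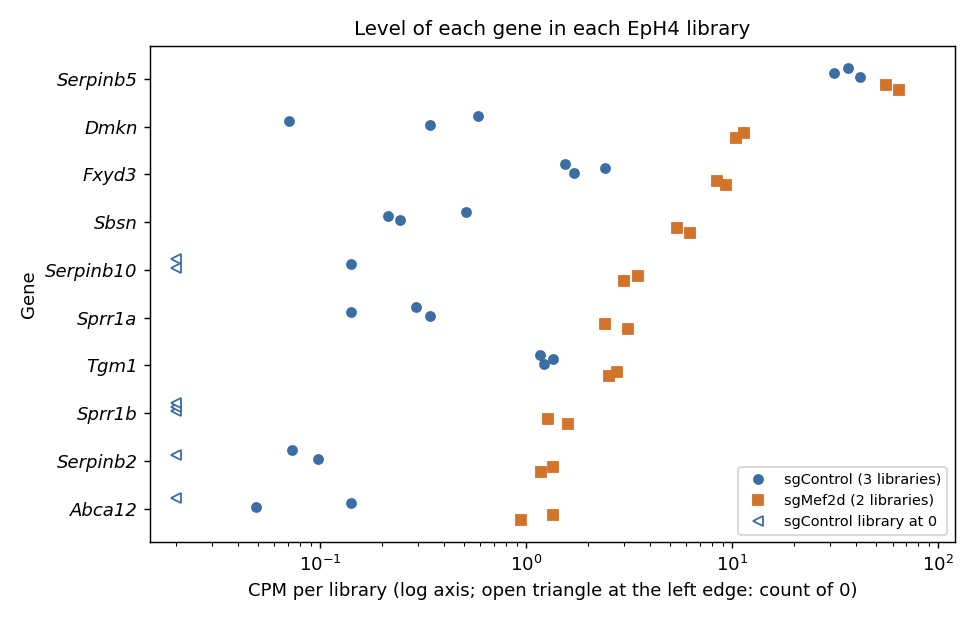
Level of each of the 10 genes (vertical axis) in each library in CPM (horizontal axis, logarithmic), with sgControl libraries as blue circles, or as open triangles at the left edge where the count was 0, and sgMef2d libraries as orange squares. In every gene both squares lie to the right of all 3 sgControl marks, from Serpinb5 with 55.9 to 64.4 CPM down to Abca12 with 0.941 to 1.35 CPM in sgMef2d.

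**Figure D3:**
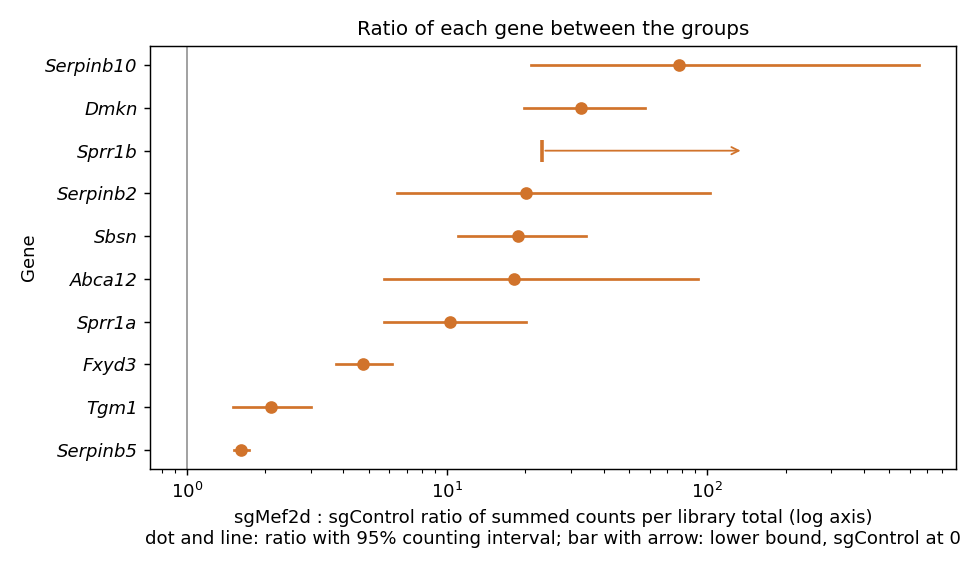
Ratio of sgMef2d to sgControl for each gene (vertical axis) as summed counts over summed library totals (horizontal axis, logarithmic), with the exact 95% counting interval as a line. Sprr1b was at 0 in sgControl, and its bar and arrow mark the bound of 23.1 against a floor of 3 counts, not a counting interval, which would begin at 18.1 and have no upper end. The other ratios run from 1.62 for Serpinb5 to 77.7 for Serpinb10, whose interval is the widest of those 9.

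Per kilobase of exon, the order of the genes changed between the groups. In sgControl, Serpinb5 led with a level of 13.2 CPM per kb, and it was higher than 69.8% of the genes listed. Tgm1 (0.371 to 0.426 over the libraries), Fxyd3 (0.317 to 0.497) and Sprr1a (0.176 to 0.423) followed in CPM per kb, and their ranges overlapped. The ranges of Dmkn (0.0323 to 0.267) and Sbsn (0.0587 to 0.141) overlapped as well, and the other 4 genes were at or near 0. In sgMef2d, Serpinb5 still led with 21.9 CPM per kb and Dmkn came next with 4.97, above Sprr1a with 3.44, and the ranges of these 3 genes did not overlap. Dmkn was then higher than 45.4% of the genes listed, as against 3.26% in sgControl. Fxyd3 and Sprr1b overlapped in sgMef2d (1.75 to 1.93 and 1.54 to 1.91 CPM per kb), as did Sprr1b and Sbsn (1.49 to 1.72), and as did Serpinb10 (0.86 to 1.0) and Tgm1 (0.8 to 0.873). Serpinb2 (0.537 CPM per kb) and Abca12 (0.0773) were the lowest. In bulk RNA, more cells with a transcript and more of that transcript per cell cannot be told apart, so these levels do not show whether all cells or a few of them carried these RNAs.

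The 10 genes lie on chromosomes 1, 3, 7 and 14, and 8 of them have another of the 10 within 1000 kb. Of the other genes whose start lay within 500 kb of one of the 10, 63 were listed and 60 were tested. Of these, 2 were higher and 1 was lower past the threshold, or 5.0% of the neighbours beside 7.95% of all genes tested. Their median log2 fold change was 0.053 and the highest 0.8, beside a median of 4.1 for the 10 genes. Beside Sprr1a and Sprr1b the late cornified envelope genes Lce1f and Lce1g had log2 fold changes of 0.65 and 0.43, neither past the threshold (edgeR adjusted p = 0.0505 and 0.0557), and Lce1h one of -0.13 (0.632).

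A member of the same family rose beside Fxyd3. Fxyd5, which encodes dysadherin and starts 34.2 kb away, rose from 21 ± 1.59 to 27.9 ± 0.0113 CPM (SD, n = 3 and 2), with a log2 fold change of 0.4 (SE 0.091, edgeR adjusted p = 0.0201). Another neighbour past the threshold lay 110 kb from Tgm1 and was Irf9, an interferon response factor that rose by 0.55 on the log2 scale (edgeR adjusted p = 0.00588). Neither Fxyd5 nor Irf9 passed the threshold without sgMef2d replicate 1 (edgeR adjusted p = 0.182 and 0.122) or without sgMef2d replicate 2 (0.197 and 0.0506), and the neighbours past it then numbered 0 and 1. Fxyd5 also lost its call without sgControl replicate 2 (0.0772), and without sgControl replicate 1 the count of neighbours past the threshold was 13. Over all alternatives the adjusted p ran from 1.87e-05 to 0.197 for Fxyd5 and from 8.87e-05 to 0.122 for Irf9.

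**Figure D4:**
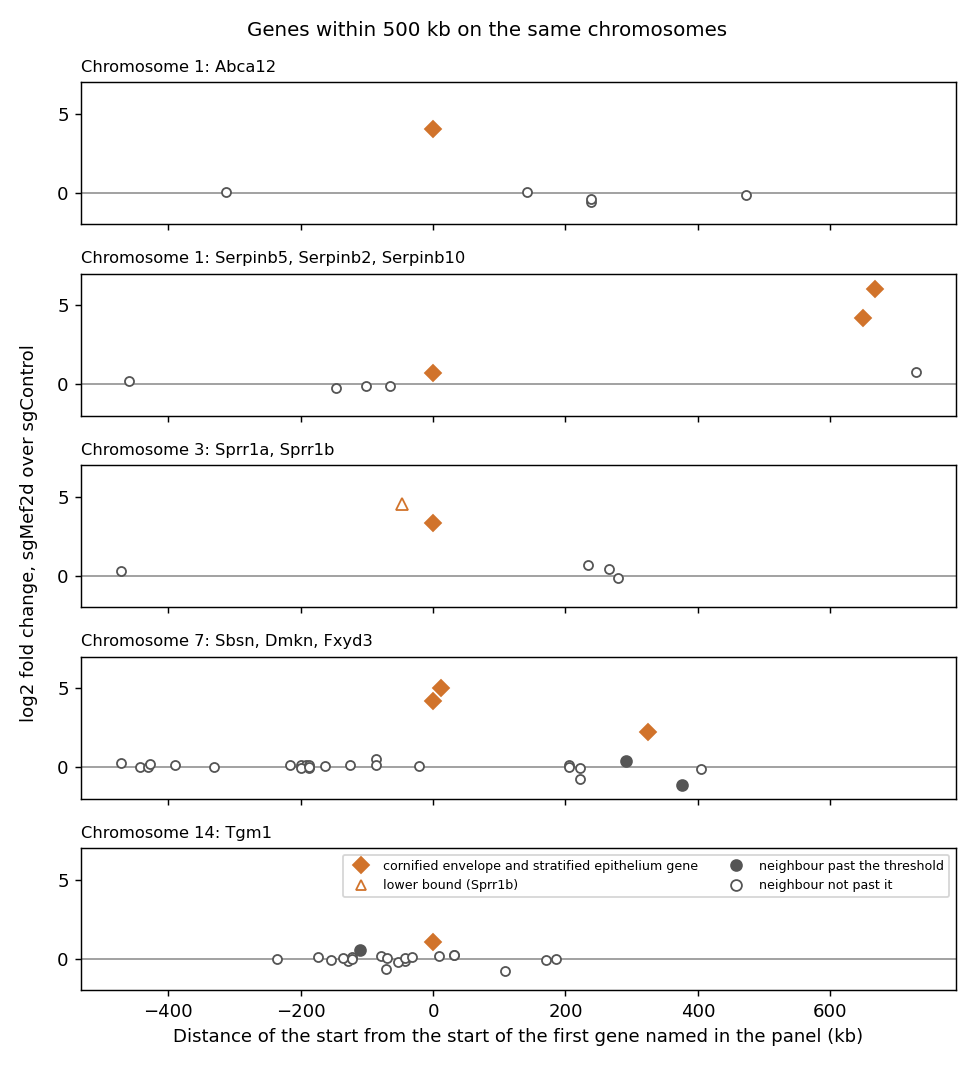
Log2 fold change (vertical axis) of the 10 genes (orange diamonds) and of the other tested genes within 500 kb (circles, filled where past the threshold), against the distance of their start from the start of the first gene named in each panel (horizontal axis, kb). Sprr1b is drawn as an open triangle at its lower bound of 4.53; the neighbours lie at or below 0.8, and only 3 of 60 are filled.

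Among 225 further genes of stratified epithelium in 6 lists, 110 were listed and 107 were tested, of which 18 were higher and 6 lower past the threshold (16.8% and 5.61%, beside 3.67% and 4.28% of all genes tested). These lists were drawn up with results of these data known, and their counts are descriptions. Of the 18, 3 passed the expression filter only through sgMef2d, and 15 of the 103 that passed it in sgControl were higher (14.6%, beside 3.28% of all such genes). With single libraries left out, 5 to 31 were higher and 1 to 18 lower, the highest of both without sgControl replicate 1. Of 67 genes for cornified envelope proteins, 15 were tested and 4 rose, Tchh, Ppl, Jup and Pkp3, with a median log2 fold change of 0.27 over the list and 0 lower past the threshold. The other 52, among them the major envelope proteins Lor, Ivl and Flg and every Sprr2 gene examined, were not among the genes listed. Tchh, which encodes the hair sheath protein trichohyalin, rose from 7.52 ± 0.575 to 12 ± 0.165 CPM (SD, n = 3 and 2), with a log2 fold change of 0.68 (edgeR adjusted p = 0.00637). Periplakin (Ppl), a scaffold of the envelope, rose by 0.47 on the log2 scale (edgeR adjusted p = 0.0219), and the desmosomal plaque genes Jup and Pkp3 by 0.35 and 0.27 (0.0201 and 0.0304). Ppl, Jup and Pkp3 were not past the threshold without sgControl replicate 2 (edgeR adjusted p = 0.0598, 0.0548 and 0.132). Tchh, Ppl, Jup and Pkp3 were not past it without sgMef2d replicate 1 (0.0791, 0.0712, 0.0886 and 0.134) or without sgMef2d replicate 2 (0.0902, 0.307, 0.297 and 0.396). The lowest adjusted p over the alternatives were 2.18e-04, 4.12e-07, 2.74e-07 and 6.82e-06 in the same order. The list as a whole had 6 higher genes and 1 lower under DESeq2, 7 and 1 with the replicate number as a block, 9 and 1 without sgControl replicate 1, and 1 and 0 without sgControl replicate 2.

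The enzymes that crosslink and process the envelope gave 1 higher and 4 lower genes among 21 tested (4.76% and 19.0%, beside 3.67% and 4.28% of all genes tested). The peptidylarginine deiminases, which convert arginine to citrulline, moved in both directions, as Padi3 rose from 11 ± 2.05 to 22.9 ± 2.71 CPM (SD, n = 3 and 2), while Padi1, Padi2 and Padi4 fell. The log2 fold changes were 1.07 for Padi3, -0.62 for Padi1, -0.58 for Padi2 and -0.38 for Padi4, with edgeR adjusted p of 9.97e-04, 0.00389, 0.0014 and 0.00701. Tgm2, the widely expressed transglutaminase, fell from 345 ± 16.1 to 273 ± 12.7 CPM (SD, n = 3 and 2), or by 0.34 on the log2 scale (edgeR adjusted p = 0.00693). Per length, Tgm2 stood at 59.3 CPM per kb and Tgm1 at 0.837 in sgMef2d. Padi2 and Padi3 kept their calls in all alternatives run (highest adjusted p 0.0451 and 0.028). Without sgMef2d replicate 1, Padi1, Padi4 and Tgm2 were not past the threshold (edgeR adjusted p = 0.0751, 0.128 and 0.161), and without sgMef2d replicate 2, Padi4 and Tgm2 were not (0.0875 and 0.0707). The lowest adjusted p of these 3 genes over the alternatives were 3.25e-11, 1.12e-07 and 1.83e-13. The list gave 4 higher and 6 lower genes without sgControl replicate 1, 1 and 1 without sgMef2d replicate 1, and 1 and 2 without sgMef2d replicate 2.

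Among 26 tested genes of barrier lipids, only Cers3 passed the threshold. It encodes the ceramide synthase of the very long chain ceramides of the skin barrier, and rose from 1.79 ± 0.255 to 4.29 ± 0.319 CPM (SD, n = 3 and 2), with a log2 fold change of 1.23 (edgeR adjusted p = 0.00506, 4.51e-05 to 0.0836 over the alternatives). It was not past the threshold without sgMef2d replicate 1 or 2 (0.0543 and 0.0836). The share called, 3.85%, lay below the 7.95% of all genes tested, and the median of the list was -0.046. Without sgControl replicate 1 this list gave 2 higher and 8 lower genes. Of the other clade B serpins and the plasminogen activator genes, 9 were tested and 0 passed the threshold in edgeR, DESeq2 or limma-voom, with 1 at an unadjusted p below 0.05 in edgeR. This was Serpinb8, which lies 61.0 kb from Serpinb10 and had 0.812 ± 0.163 CPM in sgControl and 1.39 ± 0.221 CPM in sgMef2d (edgeR adjusted p = 0.192), while Plau, the protease that Serpinb2 inhibits, had 72.8 ± 4.02 and 75.5 ± 1.54 CPM (0.705). Of the 5 sodium pump and FXYD genes tested 2 rose (40.0%, beside 3.67% of all genes tested). Of the 4 that passed the filter in sgControl 1 rose, Fxyd5 (25.0%, beside 3.28% of all such genes). Neither gene kept its call with either sgMef2d library left out, where the log2 fold change of Fxyd5 was 0.4.

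Of the regulators of epidermal differentiation, 31 were tested, of which 10 were higher and 2 lower past the threshold (32.3% and 6.45%, beside 3.67% and 4.28% of all genes tested). Of the 10, Grhl3 and Tfap2c passed the expression filter only through sgMef2d, which favours a difference by construction, and among the genes that passed it in sgControl 8 of 29 were higher (27.6%, beside 3.28% of all such genes). Grhl3, a grainyhead factor required for the skin barrier, rose from 0.474 ± 0.0305 to 3.27 ± 0.622 CPM (SD, n = 3 and 2), with a log2 fold change of 2.77 (edgeR adjusted p = 3.89e-04). Zfp750, a zinc finger factor that acts downstream of p63, rose from 1.04 ± 0.395 to 5.06 ± 0.0817 CPM, or by 2.36 on the log2 scale (4.83e-04). Tfap2c, Notch3 and Ehf rose by 2.28, 1.83 and 0.83 on the log2 scale (edgeR adjusted p = 0.00756, 0.00399 and 0.0184), and the nuclear receptor genes Rora and Vdr had log2 fold changes of -0.6 and -0.4 (0.0308 and 0.00475). Zfp750 kept its call in every alternative run, with the highest adjusted p at 0.0105. Grhl3 kept it (highest adjusted p 0.0153) where it was tested, but it was not tested at a minimum count of 50. Ehf, Rora and Vdr were not past the threshold without sgMef2d replicate 1 (edgeR adjusted p = 0.22, 0.273 and 0.0608), nor, with Tfap2c and Notch3, without sgMef2d replicate 2 (0.0914, 0.147, 0.11, 0.124 and 0.0766). Rora also lost its call without sgControl replicate 2 or 3 (0.0994 and 0.0553) and under DESeq2 (0.0587). The lowest adjusted p over the alternatives were 4.01e-04 for Tfap2c, 1.36e-09 for Notch3, 2.82e-04 for Ehf, 7.55e-04 for Rora and 4.49e-09 for Vdr. With sgMef2d replicate 1 or 2 left out the list held 6 and 4 higher genes and 0 lower.

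**Figure D5:**
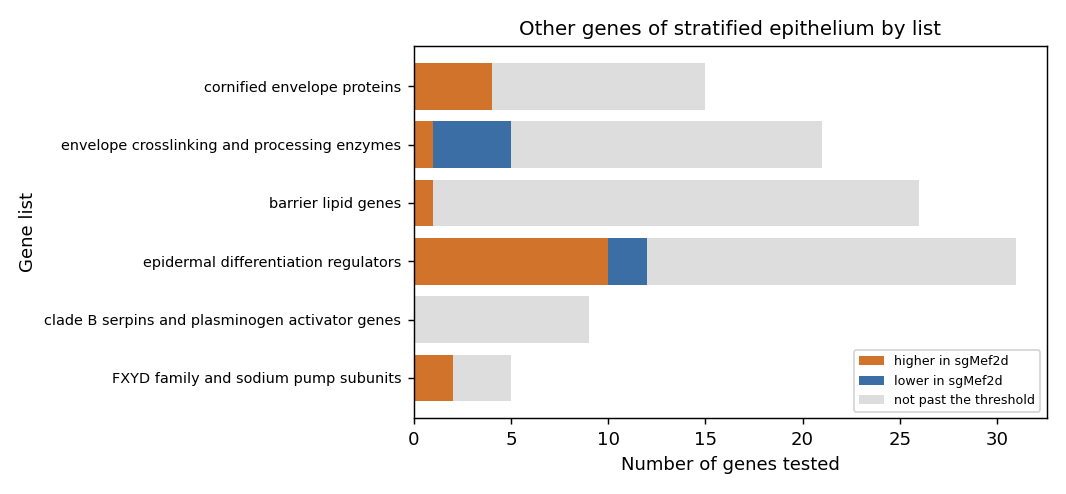
Number of genes tested (horizontal axis) in each of 6 lists of further genes (vertical axis), divided into those higher in sgMef2d past the threshold (orange), those lower (blue) and the rest (grey). The regulators of epidermal differentiation have 10 higher and 2 lower of 31, the processing enzymes 1 higher and 4 lower of 21, and the clade B serpin list none of 9.

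Markers of the layers of a stratified epithelium were read in the same way. Of 8 markers of the basal layer 7 were tested and 6 rose, Krt5, Krt14, Krt17, Trp63, Col17a1 and Itgb4 (85.7%, beside 3.67% of all genes tested). Krt5, Krt17 and Col17a1 passed the filter only through sgMef2d, and of the 4 markers that passed it in sgControl 3 rose (75.0%, beside 3.28% of all such genes). Of the 7 markers, 5 and 4 rose without sgMef2d replicates 1 and 2. Krt5 had 3, 0 and 1 counts in the sgControl libraries and 260 and 211 in the sgMef2d libraries, while Krt14 went from 439 ± 3.5 to 902 ± 38.6 CPM (SD, n = 3 and 2) and Trp63, which is also 1 of the regulators above, from 29.1 ± 2.67 to 48.6 ± 2.05 CPM. Of 14 markers of the suprabasal layers only Krt10 was listed, at 3.88 ± 0.306 and 4.97 ± 1.04 CPM (log2 fold change 0.36, edgeR adjusted p = 0.287). Krt1, the partner of Krt10, was not listed, and neither were Lor, Flg and Ivl. Krt10 was thus the one suprabasal marker with values, and it did not pass the threshold. Of the other markers, 0 of 6 milk protein genes and 0 of 5 endothelial genes were listed, and 3 of 6 myoepithelial genes summed to 24.3 to 29.8 CPM in sgControl and 16.7 to 17.5 CPM in sgMef2d, of which Acta2 fell (log2 fold change -0.81, edgeR adjusted p = 0.00237). The 6 of 8 fibroblast genes listed summed to 643 to 767 and 608 to 649 CPM, a sum made up mostly of Col1a1 and Col1a2. Of these 6, Col3a1 and Dcn rose (log2 fold changes 1.45 and 1.23, edgeR adjusted p = 0.00142 and 0.0203) and Col1a2 fell (-0.54, 2.32e-04). These were 33.3% higher and 16.7% lower, beside 3.67% and 4.28% of all genes tested. Acta2 was 1 of 3 myoepithelial genes tested, or 33.3% lower. Without sgControl replicate 2, or without sgMef2d replicate 1 or 2, only 1 fibroblast gene was higher and 1 lower past the threshold, without sgControl replicate 1 there were 3 and 3, and without sgMef2d replicate 1 no myoepithelial gene was past it. The part of other cells in the levels of the 10 genes was not tested.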

How the data were processed

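The authors aligned the reads of poly(A)-selected, strand-marked libraries to GRCm38 with STAR2, after FASTQC, and ran RSeQC, and the submitters' processing notes also name Subread and CASAVA. They deposited raw counts per gene, whole numbers without normalization, for 12934 genes. The counting tool's settings and the filter that left out other genes were not given in the sources used here, so a gene not listed has no value. Of 12934 identifiers, 12934 matched GENCODE M21, version dropped. All 5 columns were used.

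Library sizes were scaled by TMM in edgeR 4.0.16 (R 4.3.3), which also gave the expression filter with its minimum count of 10 by group (12483 genes) and the quasi-likelihood test (bias-adjusted form), without a replicate block. The threshold was a Benjamini-Hochberg adjusted p of 0.05 over all genes tested. Ratios of summed counts have exact (Clopper-Pearson) 95% intervals, which cover counting error only. Alternatives used DESeq2 1.42.0, limma-voom (limma 3.58.1), other scalings, filters and distances, and each library left out. On simulated counts for 12328 genes, 180 of 200 changed genes were recovered with 19 false calls, a larger share of the calls than the threshold of 0.05. When none had been changed, 0 of 12324 genes were called. The changed genes were not drawn from near 0 and had smaller folds than most of the 10 genes, so such genes were not covered.

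The 10 genes and all lists were chosen with earlier results of these data known. Beside the 10 genes and Mef2d, the genes named are those of each list past the threshold, at most the 5 highest and 5 lowest by log2 fold change, the neighbours past the threshold and the epithelial markers. Others named, such as Serpinb8, Plau, the Lce1 genes and the fibroblast and myoepithelial genes, were chosen after their values were seen. The separate searches for TGAGTCA and TGAATCA were also added then. Motifs were searched on both strands, and p63 and MEF2 sites by their usual degenerate forms. Some genes that the rule takes up are not reported here.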

Additional observations from a re-analysis of the deposited data

How the results depend on the processing

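The count of all genes past the threshold was 992, and the replicate number of the labels as a replicate block gave 1254. Leaving out single libraries gave 234 to 3639 genes, with 3639 without sgControl replicate 1 and 603 without sgControl replicate 2. The further lists held 24 genes past the threshold (30 with the replicate block), and between 7 and 49 with single libraries left out. The neighbours held 3 genes past it, 6 with the replicate block, 5 within 1000 kb and between 0 and 13 with single libraries left out. Over all genes, same-numbered libraries did not deviate together (correlations of 0.0113 and -0.000916). With 2 sgMef2d libraries, whose deviations mirror each other, these values cannot decide whether the numbers pair the libraries. With 1 sgMef2d library, assumed to vary like the sgControl libraries, 15 of the 21 other genes taken up by the naming rule lost their call in either case, and they kept their direction. The median log2 fold change of the 10 genes was 3.22 with a minimum count of 50, which left 4 of them, and 2.89 with a prior count of 2, an alternative chosen after seeing the data. It lay between 3.87 and 4.17 with single libraries left out, and none of the 10 changed direction in the alternatives that tested it. Genes with 0 to 3 counts in sgControl are limited by depth, and their ratios are known only within wide intervals.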
